A study of Homo sapiens and Mus musculus with 16 samples.

Results

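The 4 small RNA libraries of SK-HEP-1 cells taken at 2 h were chosen by their cell line, time and assay labels, out of 16 libraries in the series. SK-HEP-1 is a human liver cancer cell line. Cells received 0.5 mg/ml of AcFBE, an ethanol extract of fruiting bodies of the fungus Antrodia cinnamomea dissolved in DMSO (2T), or DMSO without extract (2U), in DMEM with 10% FBS in both groups. Each condition was made in 2 batches, which were separate cultures sequenced on a SOLiD 3 (batch 1) and a SOLiD 5500xl instrument (batch 2), so that culture and sequencer cannot be told apart. The 4 libraries taken at 4 h entered the fit and are otherwise used for comparison.

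MicroRNAs (miRNAs) are cut from hairpin precursors by Drosha in the nucleus and Dicer in the cytoplasm, and 1 strand of the duplex is loaded into an Argonaute protein. The loaded strand pairs with messenger RNAs mainly through its seed, so that miRNAs with the same seed form a family with overlapping targets. Hairpins that lie close together are often transcribed as 1 precursor, and the strand that is retained less often is written with a star in the nomenclature of these data. Mature miRNAs are stable in most cells, with half-lives of many hours to days.

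The mature sequences of the miRNAs on which the results turn are shown 5′ to 3′ as listed by RefSeq, with the seed (bases 2 to 8) in capitals. RefSeq sequences were found for 168 of the 199 miRNAs tested, in the table built on GRCh38.p14. The seed families hold only these, so members without a sequence are missing from them. The first set holds miR-99/100 and miR-17, the families of at least 3 tested members with the lowest median fitted log2 fold changes (-2.50 and -2.23). Not every member of these was low. The second holds a family with members on both sides of no change in batch 2, and the third single miRNAs at either end of the range.
miR-100: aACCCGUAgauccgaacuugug
miR-99a: aACCCGUAgauccgaucuugug
miR-99b: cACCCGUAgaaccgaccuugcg
miR-17: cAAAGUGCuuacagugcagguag
miR-20a: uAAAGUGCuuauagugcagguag
miR-20b: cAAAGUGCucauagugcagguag
miR-93: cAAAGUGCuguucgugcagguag
miR-106b: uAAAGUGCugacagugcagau
let-7a: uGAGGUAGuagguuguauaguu
let-7b: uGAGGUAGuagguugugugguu
let-7e: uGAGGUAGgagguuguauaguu
let-7f: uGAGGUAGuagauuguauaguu
miR-98: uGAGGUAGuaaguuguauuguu
miR-21: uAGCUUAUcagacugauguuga
miR-590-5p: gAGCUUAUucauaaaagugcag
miR-191: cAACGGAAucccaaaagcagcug
miR-185: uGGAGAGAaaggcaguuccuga
miR-10a: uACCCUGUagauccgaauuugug
miR-29b: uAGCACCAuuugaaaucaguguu
miR-29b-1*: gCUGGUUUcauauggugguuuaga
miR-193a-5p: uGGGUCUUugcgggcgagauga
miR-100 and miR-99a differed at 1 of 22 bases, as did let-7a and let-7f, and let-7a and let-7e. miR-17 and miR-20a differed at 2 of 23 bases. Reads of such near-identical members could be divided unevenly when counted, and miR-103a and miR-103b carried the same count in every library and stand for the same reads.

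The reads counted as miRNAs numbered 881237 and 683662 in the 2U libraries of batch 1 and batch 2, and 223594 and 219831 in the 2T libraries. Each count was set against the quality reads of its library as RPM (reads per 1000000 quality reads), so that a change shared by the miRNAs is kept. 3 reads, the limit that a count of 0 allows, were worth 0.142 to 0.421 RPM in these libraries, for counting error only. The 2U library of batch 1 had the highest share of miRNA reads of all 8 SK-HEP-1 libraries (12.4% of quality reads, against 1.23 to 6.94% in the others), and its part in the batch 1 ratios was not tested. Of the miRNA markers looked up for cell types, 0 of 6 epithelial ones were listed. Of blood cells 2 of 6 were listed and summed to at most 0.981 RPM. Of 4 of muscle only miR-133a was listed, at 0 in the 4 libraries. Others were present. The neural markers (3 of 4 listed, nearly all miR-128) summed to 504 and 69.0 RPM in 2U and to 88.9 and 32.8 RPM in 2T (batch 1, batch 2). Of 5 mesenchymal markers miR-145 was listed, at 363.5 and 106.2 RPM in 2U and 77.6 and 55.3 RPM in 2T. The endothelial miR-126 and miR-126* summed to 451 and 73.4 RPM in 2U and to 103 and 32.3 RPM in 2T. The hepatocyte markers (3 of 4 listed) summed to 25.1 and 49.4 RPM in 2U and to 23.5 and 22.7 RPM in 2T, most of it miR-192, whereas miR-122, the defining miRNA of hepatocytes, stood at 9.82 and 0.190 RPM in 2U and at 0.910 and 0 RPM in 2T. The cultures were of a single cell line, so these markers need not stem from other cells. Whether they come from the line itself, and the part of other cells in the ratios, was not tested.

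The miRNA pool of SK-HEP-1 was lower at 2 h of AcFBE in both batches, and the amount differed between miRNAs and between batches. Of the 385 miRNAs listed in either batch, 199 averaged 1 RPM or more across the 8 libraries and were tested, and 175 of these were above 0 in all 4 libraries of 2 h. Among these 175, 148 (84.6%) were lower in 2T in both batches and 25 differed in direction between the batches. The other 2, let-7b and let-7e, were higher in both. In batch 1, however, let-7b was higher by a log2 ratio of only 0.003 and let-7e rested on few reads. The quartiles of the log2(2T/2U) ratios were -2.50 and -1.04 in batch 1, around a median of -1.81, and -1.47 and -0.75 in batch 2, around a median of -1.17. In batch 2 alone, which does not use the 2U library with the highest miRNA share, 162 of the 175 were lower in 2T, against 159 in batch 1 alone. RPM count miRNA reads among all reads of a culture, so less miRNA per cell, more of other small RNA and fewer cells of a kind cannot be told apart. The ratios of the 2 batches were weakly related across the 175 miRNAs (Pearson's r = 0.203, Spearman's rho = 0.210), which are not independent since they come from the same libraries.

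**Figure D1:**
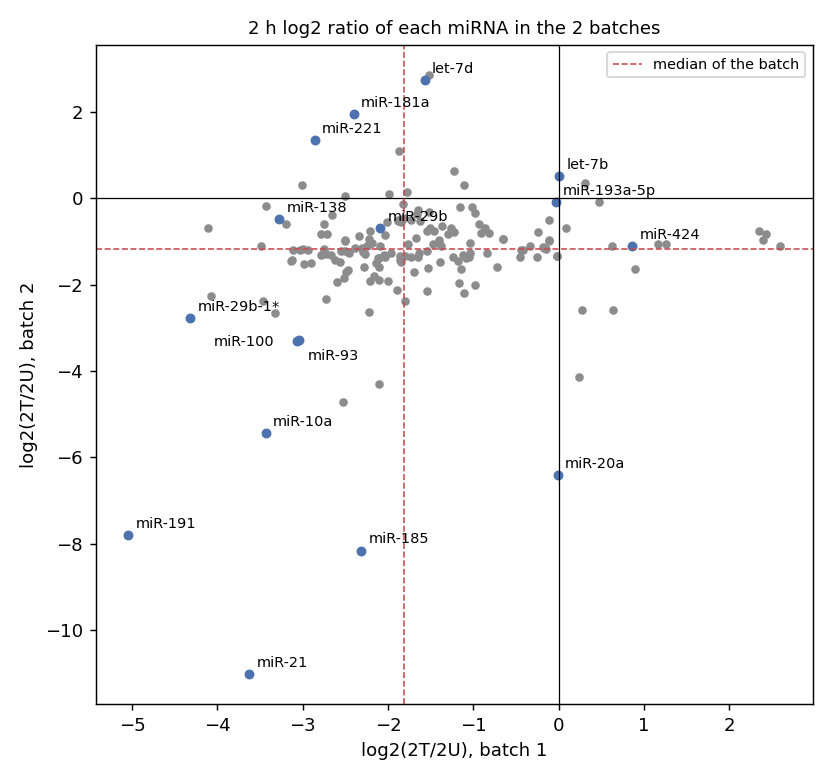
Each point is 1 of 175 miRNAs, with log2(2T/2U) in batch 1 on the x axis and in batch 2 on the y axis (RPM scale, no pseudocount). Dashed lines mark the median of each batch (-1.81 and -1.17), and 148 points lie below 0 on both axes.

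In the fit with edgeR's quasi-likelihood test (Benjamini-Hochberg adjustment, batch as a block), 191 of 199 fitted log2 fold changes were negative, with a median of -1.55, but 0 (0%) passed an adjusted p of 0.05, the smallest adjusted p being 0.215. On simulated counts with the fitted spread, this design called 0 of 40 miRNAs lowered to 0.125 of their level, with the other miRNAs left unchanged. In the data most fitted values were negative, so the simulation does not give how many could be called here. A count of 0 does not show that a change was absent. At an unadjusted p under 0.05 there were 44, all of them lower in 2T (22.1%). limma-voom called 0, DESeq2 called 8, and edgeR on the 2 h libraries alone called 22, all lower in 2T. Of these, 6 were called by both (75% of the DESeq2 calls and 27.3% of the other): miR-191, miR-21, miR-100, miR-502-3p, miR-1285 and miR-3676. Scaling to the summed miRNA counts removed the shift shared by the pool and moved the median to 0.15, TMM factors to -0.25 and DESeq2's size factors to -0.05, so that each log2 value below is also read against the shift of its batch.

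Among the 81 miRNAs with at least 10 RPM in either library of each pair, 41 (50.6%) stood at or below 50% of 2U in both batches and 0 at or above 200% in both. A further 25 were at or below 50% in batch 1 alone and 11 in batch 2 alone, and batch 2 taken by itself gave 52 of 81. The 4 that were above 50% in both batches were let-7a, miR-151-5p, miR-193b and miR-301a. Just inside the limit of a log2 ratio of -1 in both batches were miR-23a (-1.05 and -1.36) and miR-30c (-1.09 and -1.40), and just outside it were miR-331-3p (-1.40 and -0.98) and miR-128 (-2.51 and -0.96). As shares of the miRNA reads, 14 of the 81 were lower in 2T in both batches, 29 higher in both and 38 split, and 3 stood at or below 50% in both: miR-191, miR-21 and miR-29b-1*.

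miR-100 belongs to the miR-99/100 family, which targets mTOR pathway transcripts. In both batches miR-100 had the lowest ratio of the 10 miRNAs with the highest mean RPM over the 2U libraries. It stood at 24654 and 2720 RPM in 2U and at 2943 and 277 RPM in 2T (batch 1, batch 2). Within each batch 2T was far below 2U, although the batches differ so much in level that the lower 2U value lies beneath the higher 2T value. The difference was 8.38-fold in batch 1 and 9.82-fold in batch 2 (fitted log2 fold change -3.16, SE 0.61, edgeR adjusted p = 0.215), which is 1.25 and 2.13 log2 units below the shift of the batch. Its share of the miRNA reads went from 19.95% to 10.1% and from 8.38% to 2.14%. The hairpin lies at chr11:122022937-122023016 (GRCh37, minus strand), in an intron of the long non-coding RNA gene MIR100HG. miR-99a, whose hairpin lies in an intron of MIR99AHG (chr21:17911409-17911489, plus strand), stood at 37.9 and 2.75 RPM in 2U and at 4.29 and 1 RPM in 2T. miR-99b, from an intron of SPACA6, was at 0 in both libraries of batch 1 and stood at 5.13 RPM in 2U and 4.24 RPM in 2T of batch 2. The family as a whole was left at 11.9% and 10.3% of its summed 2U level, which is nearly all miR-100.

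miR-125b shares the MIR100HG precursor with miR-100 and let-7a, and is also made from MIR99AHG. It stood at 18905 and 3264 RPM in 2U and at 3976 and 1510 RPM in 2T, or 21.0% and 46.3% of 2U. let-7a, the third member of that cluster, was left at 50.6% and 78.3%. The 3 miRNAs of 1 precursor thus spanned 11.9 to 50.6% in batch 1 and 10.2 to 78.3% in batch 2, although let-7a and miR-125b are also made from other loci and their reads cannot be divided among them.

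The miR-17 family, whose targets include the cell cycle inhibitor CDKN1A, lay below the shift in both batches. Its 5 members were lower in 2T in both batches, beside 84.6% of all 175 miRNAs, 4 of 5 stood at or below 50% in both, beside 48.6%, and 4 of 5 had an unadjusted p under 0.05, against 22.1% of all miRNAs tested. The family median was -2.53 and -3.29, and its median of fitted values (-2.23) kept its negative sign under each of the scalings tried. miR-17 stood at 4246 and 482 RPM in 2U and at 744 and 134 RPM in 2T. miR-93 stood at 78.2 and 217 RPM in 2U and at 9.49 and 22.2 RPM in 2T, and miR-106b at 16.1 and 11.2 RPM in 2U and at 2.73 and 4 RPM in 2T. For miR-93 and miR-106b both 2T values lay below both 2U values, whereas miR-17 in 2T of batch 1 exceeded 2U of batch 2. miR-20b stood at 52.4 and 4.65 RPM in 2U and at 9.10 and 0.176 RPM in 2T, the last being 3 reads. miR-20a broke the pattern: it stood at 97.9 and 97.0 RPM in 2U and 2T of batch 1 but at 196 and 2.29 RPM in batch 2.

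miR-93, miR-106b and miR-25 come from 1 cluster within MCM7 (miR-93 at chr7:99691391-99691470, GRCh37, minus strand, within an exon of at least 1 annotated transcript), and its 3 members were at or below 50% in both batches. The summed cluster was left at 24.5% and 27.2% of 2U. In the miR-17-92 cluster of chromosome 13, 4 of 6 members were lower in both batches and 1, miR-17, was at or below 50% in both. The summed cluster was left at 25.1% and 53.0%. miR-92a stood at 565 and 259 RPM in 2U and at 184 and 178 RPM in 2T, whereas miR-19a was lower in batch 1 (2222 to 559 RPM) and not in batch 2 (133 to 143 RPM). miR-18a stood at 7.43 and 2.60 RPM in batch 1 and at 0.332 and 2.41 RPM in batch 2. In batch 2 the members ran from -6.41 (miR-20a, 39 reads in 2T) to 2.86 (miR-18a, 0.332 RPM in 2U), so both ends rest on few reads. Between them lay miR-17 at -1.85 and miR-19a at 0.10. miR-19b and miR-92a are also members of the miR-106a-363 cluster, and their reads cannot be divided between the clusters.

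**Figure D2:**
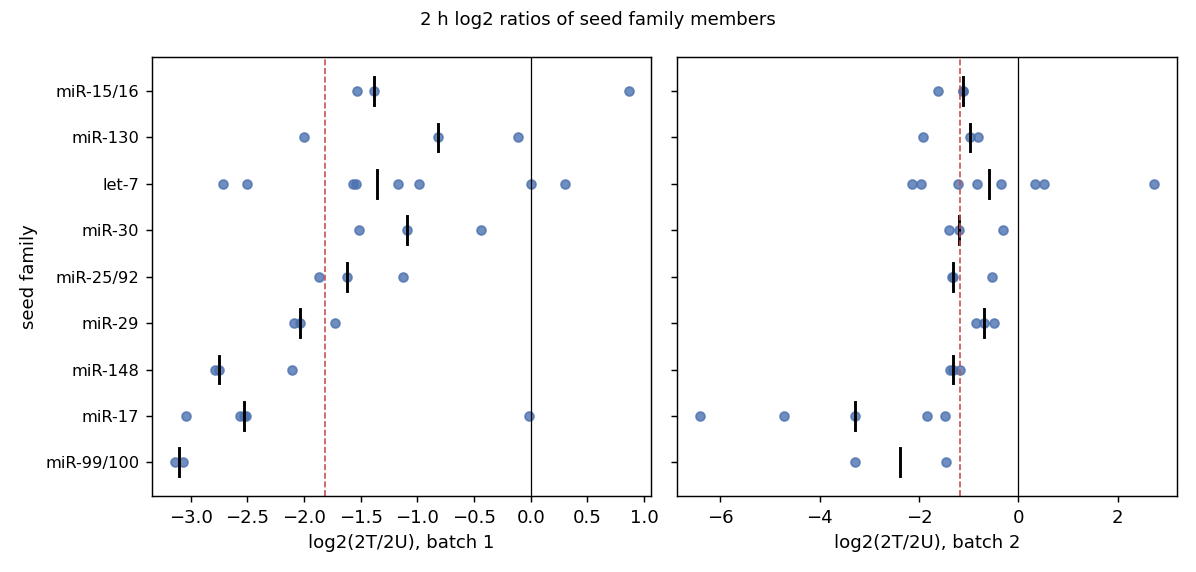
Points are the log2(2T/2U) ratios of members with a ratio in both batches, for the 9 seed families with at least 3 tested members, in batch 1 (left) and batch 2 (right, with another x range); black bars are family medians and the dashed line is the median of all 175 miRNAs (-1.81 and -1.17). The miR-17, miR-148 and miR-99/100 medians lie left of the dashed line in both panels. The let-7 members spread to both sides of 0, in batch 1 only with let-7b at about 0 and let-7e on few reads.

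The let-7 family, tumour suppressors that repress RAS and MYC, had members on both sides of no change in batch 2. In batch 1 no member of the family was clearly higher in 2T. Of its 8 members 5 were lower in 2T in both batches, 3 were at or below 50% in both (let-7f, let-7g and miR-98), and the family medians of -1.36 and -0.59 lay above the shift. let-7f stood at 6814 and 714 RPM in 2U and at 1202 and 307 RPM in 2T. let-7b stood at 15.6 and 4.89 RPM in 2U and at 15.6 and 7 RPM in 2T, and let-7e at 0.421 and 3.8 RPM in 2U and at 0.520 and 4.82 RPM in 2T. let-7b (fitted log2 fold change 0.24, SE 0.70, edgeR adjusted p = 0.804) thus stood near its 2U level in batch 1, where the pool was at 28.5%, and above it in batch 2, where the pool was at 44.5%. The batch 1 values of let-7e are 3 and 4 reads, at the limit that a count of 0 allows, so only its batch 2 values (80 and 82 reads) bear on it. let-7b and let-7e differ from let-7a at 2 and 1 of 22 bases. let-7d differed most between the batches, with 18.9 and 6.37 RPM in 2U and 2T of batch 1 and 7.40 and 49.1 RPM in batch 2.

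The families miR-29, miR-25/92 and miR-148 were lower in both batches in each of their 3 members, where 84.6% of all 175 miRNAs were. The miR-29 family, which represses collagen and DNA methyltransferase transcripts, had 33190 and 2064 RPM in sum in 2U and was left at 24.4% and 63.6%. miR-29b, its main member, stood at 28617 and 1593 RPM in 2U and at 6718 and 982 RPM in 2T, and none of the 3 members reached 50% in both batches. The miR-148 family was at or below 50% in both batches in 3 of 3 members, beside 48.6% of all 175 miRNAs. Its medians of -2.75 and -1.32 lay below the shift in both batches, as did those of miR-17 and miR-99/100. miR-148b stood at 39.5 and 9.4 RPM in 2U and at 5.72 and 3.76 RPM in 2T. The miR-130 and miR-30 families were likewise lower in both batches in 3 of 3 members, with medians of -0.82 and -0.98 and of -1.09 and -1.19. In the miR-15/16 family miR-15b was even between batches, with 1364 and 1222 RPM in 2U and 471 and 401 RPM in 2T, whereas miR-424 was higher in batch 1 (264 to 480 RPM) and lower in batch 2 (435 to 202 RPM). When the shift was removed by scaling to the miRNA total, 3 of the 9 family medians stayed negative (miR-17, miR-148 and miR-99/100) and 6 became positive. With TMM factors 4 were negative, miR-29 among them. Of the 22 listed genomic clusters with at least 2 tested members, which share some members, 22 had a negative median in the main scaling, 4 when scaled to the miRNA total and 17 without the 2U library of batch 1.

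The lowest fitted value was that of miR-191, an oncogenic miRNA of liver and other tumours. It stood at 373 and 118 RPM in 2U and at 11.3 and 0.529 RPM in 2T, with both 2T values far below both 2U values (fitted log2 fold change -6.17, SE 1.39, edgeR adjusted p = 0.215). Its hairpin (chr3:49058051-49058142, GRCh37, minus strand) and that of miR-425 (chr3:49057581-49057667) lie in introns of DALRD3. miR-425 stood at 242 and 23.2 RPM in 2U and at 98.5 and 13.1 RPM in 2T, or 40.8% and 56.6%, against 3.03% and 0.449% for miR-191. The mRNA of DALRD3, measured in 1 library per condition, was at 73.2 FPKM in 2U and 24.3 FPKM in 2T.

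miR-21, which represses PDCD4, stood at 797 and 1099 RPM in 2U and at 64.6 and 0.529 RPM in 2T, the last being 9 reads. Its log2 ratio was -3.63 in batch 1 and -11.02 in batch 2, the largest gap between batches of the 81 miRNAs with at least 10 RPM in either library of each pair. The opposite strand of the same hairpin, miR-21*, stood at 206 and 65.8 RPM in 2U and at 18.3 and 30.7 RPM in 2T, so that the strands were left at 8.10% and 8.88% in batch 1 but at 0.0482% and 46.6% in batch 2. miR-590-5p, which has the miR-21 seed and differs at 14 of 22 bases, stood at 1070 and 50.5 RPM in 2U and at 204 and 22.7 RPM in 2T. The miR-21 hairpin lies at chr17:57918627-57918698 (GRCh37, plus strand) within VMP1.

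**Figure D3:**
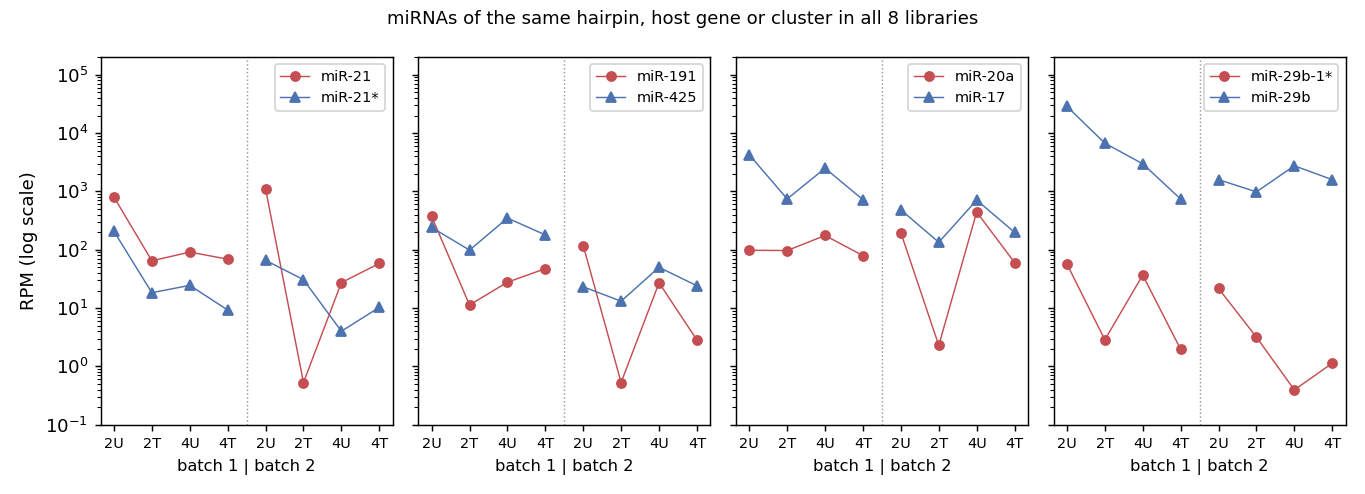
RPM on a log scale in all 8 SK-HEP-1 libraries (batch 1 left and batch 2 right of the dotted line in each panel). Panels show the strands of the miR-21 and miR-29b-1 hairpins, miR-191 and miR-425 from DALRD3, and miR-20a and miR-17 from 1 cluster. miR-29b is also made from the miR-29b-2 hairpin. Lines join libraries of a batch and imply no order in time. miR-21, miR-191 and miR-20a drop to 0.529, 0.529 and 2.29 RPM in 2T of batch 2, where their partners stay at 30.7, 13.1 and 134 RPM.

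The other low miRNAs named by the rule were miR-10a, miR-29b-1*, miR-3676, miR-185, miR-138 and miR-183. miR-29b-1* stood at 56.9 and 21.7 RPM in 2U and at 2.86 and 3.18 RPM in 2T, and lay 2.50 and 1.61 log2 units below the shift. miR-29b, the guide strand of that hairpin, lay 0.28 below the shift in batch 1 and 0.47 above it in batch 2. It is also made from the miR-29b-2 hairpin, and its reads cannot be divided between the hairpins. miR-3676 stood at 65.6 and 13.8 RPM in 2U and at 3.9 and 2.88 RPM in 2T. miR-10a, encoded in the HOXB cluster, stood at 7.01 and 89.3 RPM in 2U and at 0.650 and 2.06 RPM in 2T. miR-183, of the miR-183/96/182 cluster of sensory and tumour cells, stood at 85.8 and 14 RPM in 2U and at 11.4 and 5 RPM in 2T. miR-185, from an intron of TANGO2, was lower 4.98-fold in batch 1 (1050 to 211 RPM) and 285-fold in batch 2 (50.4 to 0.176 RPM), and miR-138 was lower 9.66-fold in batch 1 (1033 to 106.98 RPM) and 1.40-fold in batch 2 (133 to 95.1 RPM). For miR-10a, miR-29b-1*, miR-138 and miR-183 both 2T values lay below both 2U values, whereas for miR-185 the 2T value of batch 1 exceeded the 2U value of batch 2. The fitted log2 fold change of miR-185 was -2.97 with all libraries (SE 1.78, edgeR adjusted p = 0.283), and leaving out 1 library moved it to -1.66 (2T of batch 2), -2.09 (2U of batch 1), -3.30 (2U of batch 2) or -9.32 (2T of batch 1). The 12 lowest miRNAs were chosen for their low values, and none passed the edgeR test in the main design. Without the 2U library of batch 1 the fitted value of miR-138 was -0.03.

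**Figure D4:**
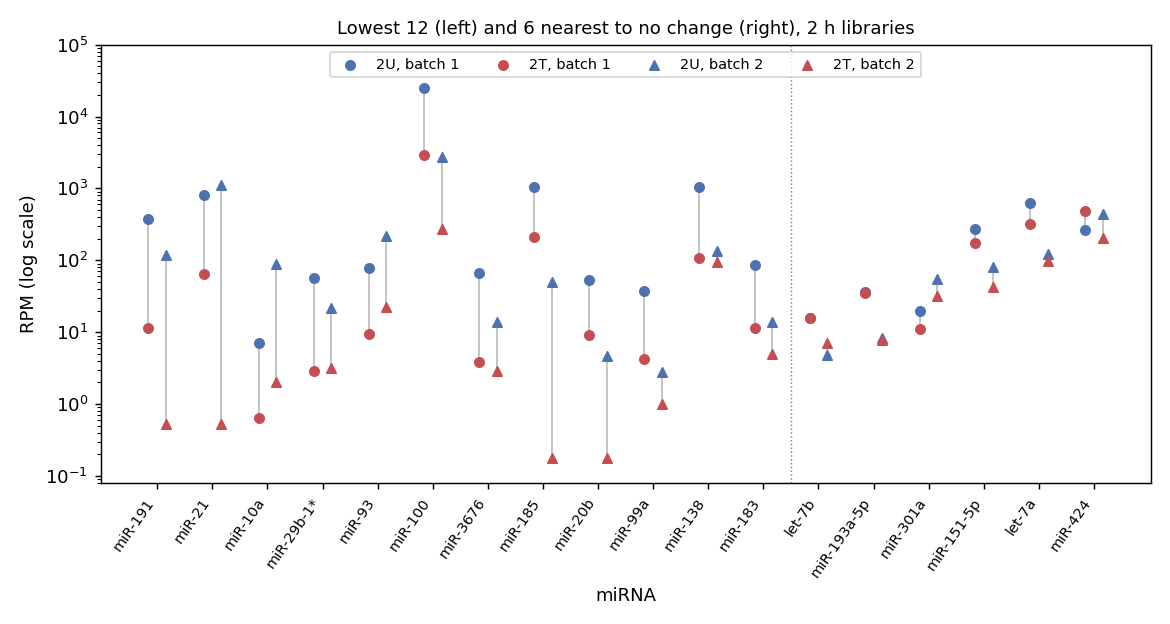
RPM on a log scale in 2U (blue) and 2T (red) of batch 1 (circles) and batch 2 (triangles). Left of the dotted line are the 12 miRNAs with the lowest fitted 2 h log2 fold change. They were taken from miRNAs averaging at least 10 RPM with a ratio in both batches. Right of the line are the 6 highest or nearest to no change, and grey lines join the pair of a batch. Each of the 12 is lower in 2T in both batches, as the rule that chose them required, by 1.40-fold (miR-138, batch 2) to 2076-fold (miR-21, batch 2), and miR-193a-5p hardly differs (35.8 and 34.97 RPM, then 8.21 and 7.71 RPM).

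Among the miRNAs named, miR-193a-5p lay nearest to its untreated level by the larger of its 2 absolute log2 ratios. In batch 1 alone let-7b, miR-20a and miR-103a lay nearer to theirs. miR-193a-5p, a tumour suppressor encoded on chromosome 17, stood at 35.8 and 8.21 RPM in 2U and at 34.97 and 7.71 RPM in 2T, or 97.8% and 93.8%. Its fitted log2 fold change was -0.06 (SE 0.64, edgeR adjusted p = 0.953), and it became 1.64 when scaled to the miRNA total. The other strand of its hairpin, miR-193a-3p, stood at 42.8 and 10.2 RPM in 2U and at 38.1 and 4.59 RPM in 2T. miR-301a and miR-151-5p were above 50% in both batches but lower than in 2U. miR-301a was left at 56.5% and 57.3%, with 19.8 and 55.6 RPM in 2U and 11.2 and 31.9 RPM in 2T. miR-151-5p, from the host gene PTK2, was left at 63.8% and 51.6%. The values of both lie between the medians of the pool (28.5% and 44.5%) and the untreated level, in batch 2 nearer to the median, and their difference from the pool was not tested.

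Among the other abundant miRNAs, miR-103a, which regulates insulin signalling, stood at 1483 and 1464 RPM in 2U and 2T of batch 1 and at 6122 and 2431 RPM in batch 2. miR-107, with the same seed and 1 different base of 23, stood at 143 and 54.5 RPM in batch 1 and at 136 and 49.3 RPM in batch 2. Within 1 seed pair, miR-107 was thus even between batches and miR-103a was not.

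Where the batches disagreed in direction, 14 miRNAs were higher in batch 1 and lower in batch 2 and 11 the reverse. miR-181a stood at 510 and 96.7 RPM in 2U and 2T of batch 1 and at 8.31 and 31.8 RPM in batch 2. miR-221, which represses CDKN1B, stood at 122 and 16.8 RPM in batch 1 and at 136 and 344 RPM in batch 2. Its cluster partner miR-222 was lower in both batches, at 5.61 and 5.84 RPM in 2U and 1.30 and 0.294 RPM in 2T. In both cases the other strand was lower in both batches: miR-181a* stood at 3.93 and 51.4 RPM in 2U and at 0.650 and 13.3 RPM in 2T, and miR-221* at 6.31 and 1.80 RPM in 2U and at 1.69 and 0.412 RPM in 2T.

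Star strands as a group lay near the pool medians of -1.81 and -1.17. Of 43 tested, 35 were above 0 in all 4 libraries, 30 of these were lower in both batches (84.6% over all 175 miRNAs) and 20 were at or below 50% in both (48.6% over all 175), with medians of -2.03 and -1.11. For 27 combinations of a star strand with its guide, both strands having a ratio in both batches, both strands were lower in both batches in 20, the star strand alone in 4, the guide alone in 2 and neither in 1.

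The ratio was lower for miRNAs of higher level in 2U, more so in batch 1 (Spearman's rho = -0.403 across the 175 miRNAs) than in batch 2 (rho = -0.176). The 2U level is itself part of the ratio and the miRNAs share their libraries. The 175 also leave out 16 miRNAs at 0 in a 2T library and above 0 in both 2U libraries, against 3 the reverse. The part of this selection in the relation was not tested. The medians were -1.38 and -1.11 for 64 miRNAs with a mean under 10 RPM in 2U, -2.09 and -1.18 for 59 from 10 to 100 RPM, -2.08 and -1.16 for 40 from 100 to 1000 RPM, and -1.90 and -1.27 for 12 above it. In batch 1 the medians above 10 RPM thus did not fall further with level. Among the 147 with a RefSeq sequence, those starting with A had medians of -2.07 and -1.29 (34 miRNAs) and those starting with U of -1.65 and -1.2 (72 miRNAs). Those ending in C had a median of -1.09 in batch 1 (25 miRNAs), against -1.84 to -2.07 for the other last bases, and of -1.11 in batch 2, against -1.18 to -1.24. Medians by GC content ranged from -1.88 to -1.58 in batch 1 and from -1.26 to -1.14 in batch 2 over 3 ranges of GC content of similar size.

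The mRNA libraries of the same cells and time, 1 per condition and without a test, held 23 of 26 genes that host or are the precursor of miRNAs. Of these, 8 had at least 1 FPKM in both libraries, and 3 of the 8 were lower in 2T, with a median log2 ratio of 0.15, beside -0.03 over the 4325 genes with at least 1 FPKM in both. EGFL7, which hosts miR-126, was higher in 2T, at 5.84 FPKM in 2U and 20.5 FPKM in 2T. miR-126 was nevertheless at or below 50% in both batches, at 206 and 57.4 RPM in 2U and 26.1 and 19.8 RPM in 2T. COPZ1 was at 56.6 and 101 FPKM. EVL, host of miR-342, was at 12.7 and 4.54 FPKM, and miR-342-3p was at or below 50% in both batches. MIR17HG and MCM7 were listed at 0 FPKM in both libraries, so that the miR-17-92 and miR-106b-25 precursors could not be compared.

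At 4 h the same contrast was taken from 4 other libraries. The change at 4 h minus the change at 2 h passed an adjusted p of 0.05 for 0 of 199 miRNAs (0%) in edgeR, with 7 at an unadjusted p under 0.05, and for 0 in DESeq2 and in limma-voom. Its median was 0.25 on the log2 scale. The 2 h difference of miR-100 (-3.07 and -3.30) stood beside -1.17 and -1.40 at 4 h (difference 1.86, SE 0.80, edgeR adjusted p = 0.953). The difference of miR-191 stood at -5.04 and -7.80 at 2 h and at 0.77 and -3.26 at 4 h, and its 4U levels were 27.8 and 27.1 RPM, below the 2U levels of 373 and 118 RPM. For miR-21 the 4U levels were likewise lower, at 91.2 and 27.3 RPM, than the 2U levels of 797 and 1099 RPM.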

How the data were processed

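Small RNA of SK-HEP-1 cells was sequenced by the authors on SOLiD instruments. Per the study's methods, adapters were trimmed with cutadapt, reads of 16 to 30 bases were kept, tRNA, rRNA and repeat matches were removed with Bowtie (0.12.7 in the submitters' processing notes), and reads were matched to miRBase; the build was hg19 (GRCh37). The deposited miRNA values are raw counts per known miRNA without normalization, and a miRNA needed 2 reads to be listed. A miRNA listed in 1 batch alone was set to 0 in the other; 3 of the 199 tested were of this kind. The authors made the mRNA values (FPKM) with TopHat, Bowtie and Cufflinks.

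Counts were divided by the library's quality reads, as the study's library table gives them, to give RPM. Ratios of pairs used no pseudocount. Those averaging 1 RPM or more across the 8 libraries of the line were tested with edgeR 4.0.16 (quasi-likelihood, R 4.3.3, norm factors of 1, 1 mean per condition and batch as a block, 3 residual degrees of freedom, biological coefficient of variation 0.684), with Benjamini-Hochberg adjustment. limma 3.58.1 and DESeq2 1.42.0 were alternatives. Replicates of a group were separate cultures, 1 in each batch. Libraries of a batch deviated together (correlations of 0.463 to 0.730 between conditions), so the batch number pairs them. The code was tested on simulated counts with the fitted levels and spread, where 40 of 199 miRNAs were lowered in 2T and the others had no 2 h effect. Lowered to 0.25 or to 0.125 of their level, 0 of the 40 were called, and lowered to 0.0625 of it, 25 were. Python 3.11.15, numpy 2.4.6, pandas 2.3.3 and matplotlib 3.10.9 served for the rest. Hairpin positions are from the GENCODE annotation of GRCh37.

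Named miRNAs are the 12 lowest fitted values (at least 10 RPM on average over the 2 h libraries, lower in both pairs), the 6 highest or nearest to no change, the 10 most abundant in 2U, the 6 whose batches differed most, and the members of seed families with at least 3 tested members and of listed genomic clusters. Others named were singled out after their values were seen. The members, lists and tests were chosen with earlier results of these data known. Alternatives covered scaling, filters, tools, the block and leaving out each 2 h library.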

Additional observations from a re-analysis of the deposited data

Results flagged for a closer look

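miR-93 was lower in 2T in both batches at 2 h (log2 ratios of -3.04 and -3.29) and higher in 4T in both batches at 4 h (0.46 and 2.19), which is what singled it out among the miRNAs named. The change at 4 h minus the change at 2 h was 4.12 on the log2 scale (SE 1.56, unadjusted p = 0.0320, edgeR adjusted p = 0.953), so the difference between the times did not pass the test. Its levels were 78.2, 9.49, 18.6 and 25.5 RPM in 2U, 2T, 4U and 4T of batch 1 and 217, 22.2, 3.02 and 13.7 RPM in batch 2.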

How the results depend on the processing

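The number of miRNAs past an adjusted p of 0.05 at 2 h went from 0 to 8 with DESeq2 and to 22 with the 2 h libraries alone and the replicate block, and was 0 in the other fits, among them the fit without the replicate block and those without each 2 h library in turn. Pairing by batch thus changed no call in the main design, where both fits called 0, but it changed the p-values. Without the block 4 miRNAs in place of 44 had an unadjusted edgeR p under 0.05. The smallest edgeR adjusted p was 0.595 in place of 0.215, and the median was -1.70 in place of -1.55. The median became 0.15 when counts were scaled to the miRNA total, -0.25 with TMM factors and -0.048 with DESeq2's size factors, each of which removes a shift shared by the miRNAs. Without each 2 h library it ran from -1.73 to -1.23. The 41 of 81 miRNAs at or below 50% in both batches became 3 of 81 when scaled to the miRNA total, 79 of 154 at a minimum of 1 RPM, 83 of 168 at a minimum of 10 reads, 17 of 31 at a minimum of 100 RPM, and 66 of 81 within batch 1 alone. With these scalings in the same order, the log2 fold change of miR-193a-5p was 1.64, 1.25 and 1.43, that of miR-301a 1.01, 0.61 and 0.79, that of miR-151-5p 0.90, 0.51 and 0.69, and that of let-7a 1.05, 0.66 and 0.84. miR-424 (0.0025 in the main fit) was -0.23 when scaled to reads left after the tRNA filter, -0.15 with limma-voom, -0.034 without the replicate block and -0.12 with the 2 h libraries alone. Without 1 library each, miR-424 ran from -1.05 to 0.81, miR-301a from -1.79 to 0.17, let-7a from -1.28 to 0.025, let-7b from -0.074 to 0.60 and miR-193a-5p from -0.15 to 0.024. The cause of these moves was not tested. With 1 pair per batch, depth sets the limit for miRNAs of few reads: 3 reads are worth 0.142 to 0.421 RPM, and a listed 0 can be 1 read.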

Other observations

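Some miRNAs were near absent from a library, set against the median of the others of its batch. With a limit chosen after seeing the data (a median of at least 20 RPM in the other 3 libraries of the batch, and at most 1 in 20 of it in the library itself), there were 7 such values in the 8 libraries, of which 4 fell in 2T of batch 2 and 0 in the other 2 h libraries. These 4 were miR-185 (0.176 RPM against a median of 50.4), miR-191 (0.529 against 27.1), miR-20a (2.29 against 196) and miR-21 (0.529 against 58.3), on 3, 9, 39 and 9 reads. The other 3 were miR-126 in 4U of batch 2 (0 against 22.4), miR-221 in 4T of batch 2 (5.88 against 136) and miR-3676 in 4T of batch 1 (2.83 against 65.6). As the limit uses a median, a further library can be low too. miR-3676 stood at 3.9 RPM in 2T of batch 1, and miR-191 at 2.83 RPM in 4T of batch 2.

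Of the 24 tested miRNAs without 4 values above 0 at 2 h, 3 were listed in 1 batch alone. Of the other 21, 16 were at 0 in a 2T library and above 0 in both 2U libraries, 3 were at 0 in a 2U library and above 0 in both 2T libraries, and 2 were at 0 in both libraries of batch 1. miR-502-3p, singled out here after its values were seen, stood at 57.8 and 5.59 RPM in 2U and 2T of batch 1 and at 1.42 and 0 RPM in batch 2. The 186 miRNAs under the filter summed to 85.0 and 42.9 RPM in 2U and to 17.2 and 16.9 RPM in 2T.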
